A study of Homo sapiens with 9 samples.

Results

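The proteasome subunit genes are the genes whose symbols start with PSM, followed by a letter from A to G and a number, as the human gene nomenclature names the parts of the proteasome and its helpers. The rule took every such symbol from the count table and found 48 of 26475 symbols, none of them a pseudogene. A375, a human melanoma cell line that carries a BRAF mutation, received DMSO, the vehicle, for 24 h, or TP-472 at 5 µM or at 10 µM for as long. TP-472 is a small molecule that inhibits BRD9 and BRD7, which are bromodomain proteins of chromatin remodelling complexes. Messenger RNA was profiled in 3 libraries per group, which held 42483091 to 51298130 expected counts each. The 3 groups share the same parental cell line and the same time point, and the groups differ by compound and dose. The methods speak of biological replicates for the experiments in general, and the labels do not say which libraries came from separate cultures, so p-values measure the spread between these libraries.

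The proteasome is the protease that degrades most ubiquitin-tagged proteins in the cytosol and nucleus. Its 20S core is a barrel of outer rings of alpha subunits, which gate the entrance, and inner rings of beta subunits, of which PSMB5, PSMB6 and PSMB7 carry the active sites. The 19S regulator caps the core. Its base holds the PSMC ATPases, which unfold substrates, and its PSMD subunits bind ubiquitin, remove it and hold the particle together. PSMB8, PSMB9 and PSMB10 replace the active subunits in the immunoproteasome, which interferon induces and which is known for making peptides for MHC class I molecules. PSMD5, PSMD9, PSMD10 and the PSMG genes encode assembly chaperones, the PSME genes encode other caps of the core and PSMF1 encodes an inhibitor. Cells that lack proteasome activity are known to raise the genes of the core and the 19S regulator together through the transcription factor NFE2L1.

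The 48 genes fell into 8 alpha ring genes, 7 genes of the constitutive beta ring, 4 genes of inducible or thymic beta subunits, 6 ATPases, 11 other 19S subunits, 3 chaperones of the 19S base, 4 chaperones of the 20S core and 5 activators or inhibitors. Of them, 46 passed the filter on low counts and were tested among 16417 genes. PSMA8, the testis-specific alpha subunit, had 0 counts in every library. PSMB11, the beta subunit of thymic epithelium, had 0 or 1 count in each DMSO library, 0 in each library at 5 µM and 0, 9 and 4 at 10 µM. In DMSO and on a scale of counts per transcript length (TPM, with 1 annotated transcript per gene), PSMB4 had the highest level, 1122 TPM, followed by PSMA7 at 805 TPM and PSMD4 at 556 TPM. The lowest tested members on that scale were PSMD9 at 38.2 TPM and PSMG4 at 38.5 TPM, both chaperones. The levels of PSMA4, PSMA5 and PSMC1 on that scale rest on long annotated transcripts.

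The libraries were checked before the comparisons. The melanoma cell marker SOX10 was at 363 to 426 CPM in the 9 libraries (CPM, counts scaled to 1000000 per library), whereas TYR was at 0 in each library and DCT at or near 0. Of the 10 markers on that list 8 were tested, and 2 fell at 10 µM, beside 18% of all tested genes. They were the mesenchymal filament gene VIM, by 0.73 (edgeR adjusted p = 0.000142), and S100A1, by 1.56 on the log2 scale (edgeR adjusted p = 0.0129). At 5 µM 1 of the 8 fell, beside 5.81%, and this was VIM, by 0.57 (edgeR adjusted p = 0.0025). VIM and S100A1 were named after their values were seen, and their part in the results was not tested. Of 7 leukocyte markers, CD3E was at 0 and PTPRC was at most 0.537 CPM. CD68, a lysosomal protein on the same list, was between 53.3 and 58.7 CPM in DMSO and between 87.1 and 129.5 CPM at 10 µM. The leukocyte markers summed to between 59.5 and 65.1 CPM in DMSO, between 89.6 and 90.1 CPM at 5 µM and between 92.3 and 137 CPM at 10 µM, and their part in the results was not tested. A list of 7 epithelial and endothelial markers summed to 9.12 to 14.1 CPM. Between 8.20% and 19.9% of a library's counts fell on ribosomal RNA genes.

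Replicate 1 at 10 µM stood apart from the other libraries. A smooth trend with transcript length and GC explained 11.2% of the variance in its log2 CPM about each gene's mean over the 9 libraries, and at most 1.99% in another library. Of the 46 tested proteasome genes, 41 were higher in it than the mean of replicates 2 and 3, with a median log2 difference of 0.42, whereas the median over all tested genes was near 0. The difference was largest for PSMG3, at 0.85 on the log2 scale, and lowest for PSME4, at -0.59, the member with the longest transcript (7099 nt). Across the 46 members the difference went with log2 transcript length at a Pearson's r of -0.70 and a Spearman's rho of -0.66. These points share 1 library and are given as a description. Log2 fold changes of the members against DMSO also went with log2 transcript length apart from this library. Pearson's r was 0.38 at 5 µM and 0.42 at 10 µM without replicate 1, and 0.17 at 10 µM with all libraries. The part of length in these changes was not tested. The median transcript of the members was 1579.5 nt, against 3146 nt over all tested genes. Results at 10 µM are therefore given with and without this library, and the part of transcript length in it was not tested beyond the alternative that removes the trend.

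**Figure D1:**
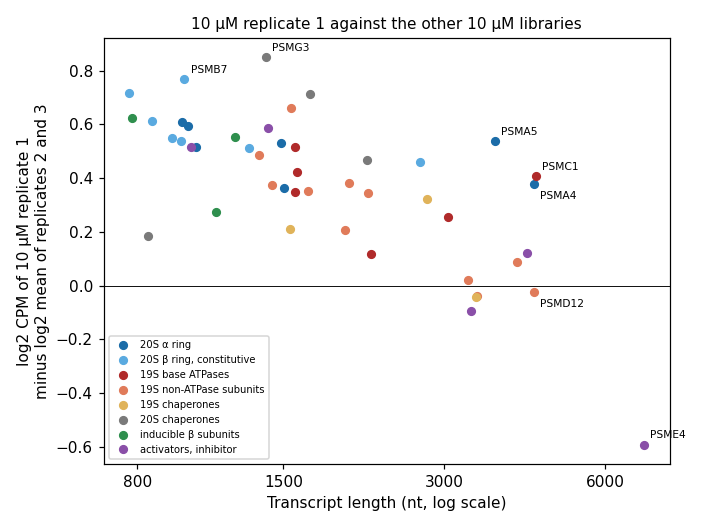
For each of the 46 tested proteasome genes, the log2 CPM of replicate 1 at 10 µM minus the log2 mean of replicates 2 and 3, against transcript length in nucleotides on a log axis, with 1 point per gene coloured by class. Most points lie above 0, from PSMG3 at 0.85 down to PSME4 at -0.59, and points tend to lie lower at longer transcripts, with exceptions such as PSMC1, PSMA4 and PSMA5.

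Most proteasome genes were higher at 10 µM than in DMSO, by less than a factor of 1.5 for nearly all of them. At an adjusted p under 0.05, 26 of the 46 tested members rose and 1 fell at 10 µM, beside 16.4% of all tested genes that rose and 18% that fell. The median log2 fold change of the members was 0.36, and that of all tested genes was 0.01. With a fold change of at least 1.5 added, 3 members rose and 0 fell at 10 µM, beside 8.57% and 10.5% of all tested genes, and 0 rose at 5 µM (2.14%) or from 5 µM to 10 µM (1.42%). At 5 µM, 5 members rose and 0 fell, beside backgrounds of 4.4% and 5.81%, and the members' median was 0.13. From 5 µM to 10 µM, 3 members rose and 0 fell, beside backgrounds of 2.87% and 5.53%, with a median of 0.23. The comparisons with DMSO share the 3 DMSO libraries. Beside the falls counted as 0, the edgeR quasi-likelihood test gave 1 member lower at an unadjusted p under 0.05 at 5 µM and 0 from 5 µM to 10 µM, and limma-voom and DESeq2 each called 0 in both. In bulk RNA, a change in the number of cells of a kind and a change in the RNA per cell cannot be told apart.

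Without replicate 1 at 10 µM, 33 members rose and 6 fell at 10 µM against DMSO, beside 23% and 25.8% of 16745 genes, and the members' median was 0.21. In the same fit 22 rose and 4 fell at 5 µM, beside 16.5% and 17.6%, with a median of 0.13. From 5 µM to 10 µM, 11 rose and 3 fell in it, beside 8.8% and 15.4%, and the median was 0.06. Without DMSO replicate 1, 2 or 3, the rises at 10 µM numbered 15, 12 and 13, those at 5 µM 0, 1 and 0, and those from 5 µM to 10 µM 1 each. Without each library at 5 µM in turn, the rises at 5 µM numbered 1 each and those from 5 µM to 10 µM 0 each. Shares over all tested genes are not given for the fits without a DMSO or 5 µM library. The fall at 10 µM, that of PSME1, was called in 1 of the 9 fits that leave out a library, the one without replicate 1 at 10 µM. Of the 26 rises at 10 µM, 12 were called in each of these 9 fits. They were the 19S genes PSMC1, PSMC2, PSMC4, PSMC5, PSMD1, PSMD2, PSMD3, PSMD6, PSMD11, PSMD12 and PSMD14, and PSME3. The calls of the 7 core genes that rose were lost in each case without DMSO replicate 2 or without DMSO replicate 3, and the 5 µM and 5 µM to 10 µM calls were lost in each case without at least 2 of the DMSO or 5 µM libraries.

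**Figure D2:**
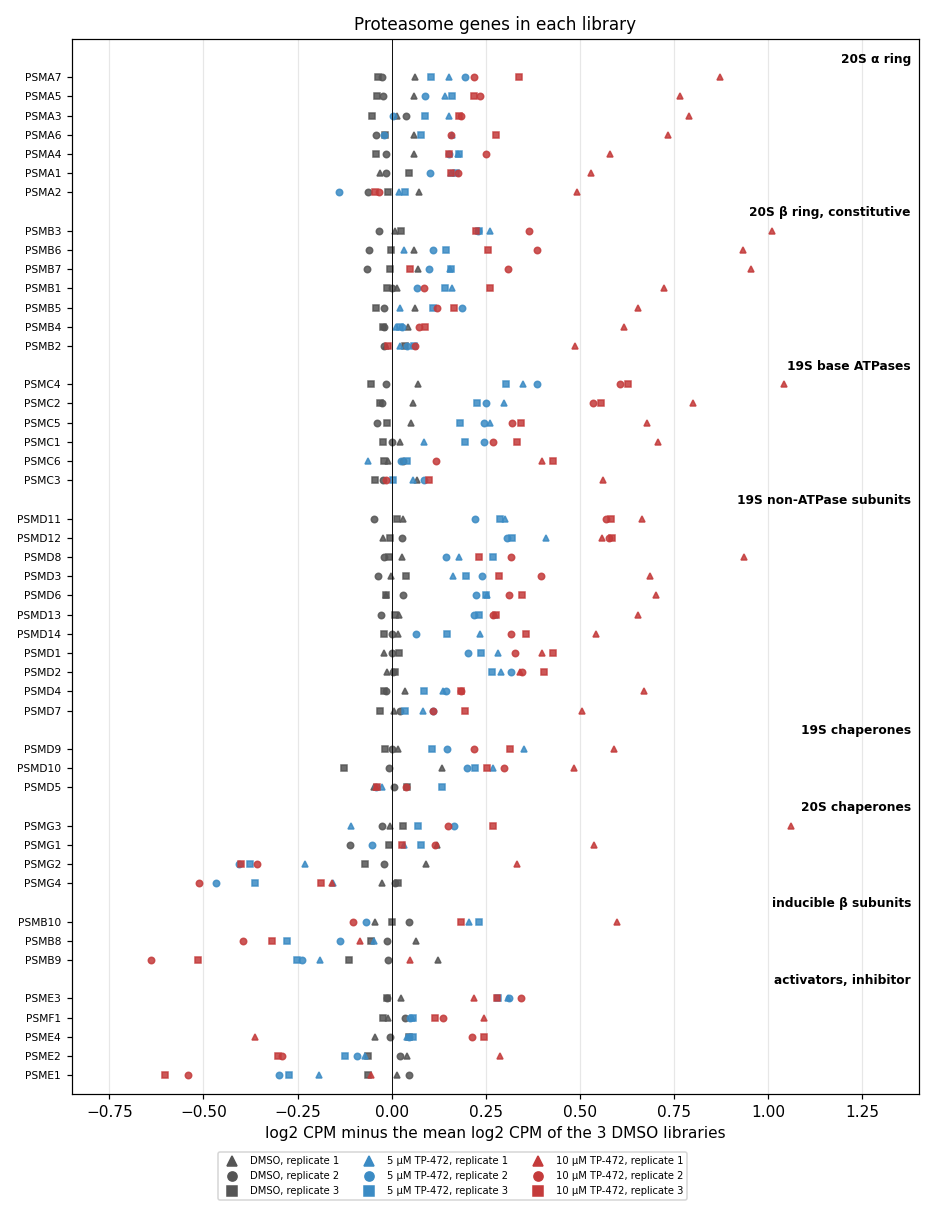
Each row is 1 tested proteasome gene and each point 1 library, placed at its log2 CPM minus the mean log2 CPM of the 3 DMSO libraries, with genes grouped by class and ordered by their change at 10 µM. Replicate 1 at 10 µM (red triangles) lies far to the right of the other red points in most rows of the core, whereas in PSMC4, PSMC2, PSMD11 and PSMD12 all 3 libraries at 10 µM lie to the right of the DMSO and 5 µM points.

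The summed share of the 48 genes in all counts was 0.541% ± 0.006 (SD, n = 3) in DMSO, 0.600% ± 0.019 (SD, n = 3) at 5 µM and 0.702% ± 0.123 (SD, n = 3) at 10 µM. The 3 libraries at 10 µM were at 0.842%, 0.653% and 0.611%, each above the highest DMSO library, 0.545%. The lowest of them overlapped with the libraries at 5 µM, which were at 0.578%, 0.613% and 0.608%. With the genes of ribosomal RNA left out of the total, the shares were 0.602%, 0.689% and 0.814%, and the 3 libraries at 10 µM (0.917%, 0.761% and 0.763%) then lay above the highest at 5 µM, 0.693%.

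The 19S regulator carried the most calls. All 11 non-ATPase subunits and 5 of the 6 ATPases rose at 10 µM, beside 16.4% of all tested genes. The same 16 of 17 were called without replicate 1, beside 23%, PSMC3 being the exception. Without 1 DMSO library the 19S rises at 10 µM numbered 11 or 12, and shares over all tested genes are not given for these fits. The median log2 fold change of the 17 genes was 0.45 and, without replicate 1, 0.33. At 5 µM, 4 of the 17 rose, beside 4.4% of all tested genes, with a median of 0.23. In 15 of the 17 all 3 libraries at 5 µM lay above the DMSO libraries, as in 23.7% of all tested genes. All 11 non-ATPase subunits showed that order at 5 µM. At 10 µM, 16 of the 17 showed it, beside 23.4%.

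Among the ATPases, PSMC4 and PSMC2 changed most. PSMC4, on chromosome 19 (39971005 to 39981441, GRCh38), was at 166, 156 and 152 CPM in DMSO, 201, 206 and 195 CPM at 5 µM and 325, 241 and 244 CPM at 10 µM. The 3 groups did not overlap, with DMSO lowest, 5 µM between and 10 µM highest. Its log2 fold change at 10 µM was 0.77 ± 0.11 (SE, edgeR adjusted p = 0.000608), and 0.61 without replicate 1 (adjusted p = 1.09e-08). From 5 µM to 10 µM it rose by 0.43 on the log2 scale (edgeR adjusted p = 0.0443), and by 0.27 without replicate 1 (edgeR adjusted p = 0.00029), while the change at 5 µM, 0.35, was not called (edgeR adjusted p = 0.0827).

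PSMC2, on chromosome 7 (103344254 to 103369395), was at 116, 109.7 and 109 CPM in DMSO, 137, 133 and 131 CPM at 5 µM and 195, 162 and 164 CPM at 10 µM. Its groups did not overlap either. The log2 fold change was 0.64 ± 0.08 (SE) at 10 µM (edgeR adjusted p = 0.000338), 0.54 without replicate 1, and 0.38 from 5 µM to 10 µM (edgeR adjusted p = 0.0235). PSMC1, PSMC5 and PSMC6 also rose at 10 µM, by 0.45, 0.46 and 0.32 on the log2 scale, and by 0.30, 0.33 and 0.28 without replicate 1. The exons of PSMC1 overlap those of NRDE2 on the opposite strand over 75.8% of their length and those of PSMC5 overlap FTSJ3 over 19.5%. The strand setting of the counting was not stated, so reads of these pairs may be mixed. PSMC3 was at a log2 fold change of 0.24 (edgeR adjusted p = 0.19), and 0.04 without replicate 1.

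Among the non-ATPase subunits, PSMD11 and PSMD12, which belong to the lid of the regulator, had the smallest p at 10 µM. PSMD11, on chromosome 17 (32444261 to 32483318), was at 139.6, 132 and 138 CPM in DMSO, 168, 159 and 167 CPM at 5 µM and 217, 203 and 205 CPM at 10 µM. PSMD12, also on chromosome 17 (67337916 to 67366627), was at 79.3, 82.2 and 80.4 CPM in DMSO, 107, 99.6 and 101 CPM at 5 µM and 119, 120.2 and 121 CPM at 10 µM. In both genes the groups did not overlap, and the 3 libraries at 10 µM lay close together, replicate 1 included. PSMD11 rose by 0.61 ± 0.06 (SE) on the log2 scale at 10 µM (edgeR adjusted p = 8.99e-05), and PSMD12 by 0.57 ± 0.06 (SE) (edgeR adjusted p = 0.000123). Without replicate 1 the values were 0.57 and 0.58. Both rose at 5 µM as well, by 0.27 (edgeR adjusted p = 0.0271) and 0.35 (edgeR adjusted p = 0.0085). From 5 µM to 10 µM PSMD11 rose by 0.34 (edgeR adjusted p = 0.0126), and the change of PSMD12, 0.23, was not called (edgeR adjusted p = 0.058).

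The other 9 non-ATPase subunits rose by 0.28 to 0.53 on the log2 scale at 10 µM, and by 0.15 to 0.38 without replicate 1. PSMD1 and PSMD2, the scaffold subunits of the base, rose at 5 µM by 0.24 and 0.29, and at 10 µM by 0.39 and 0.36. They hardly depended on replicate 1, without which they changed by 0.38 and 0.37 at 10 µM. PSMD14, the subunit that removes ubiquitin chains from substrates, rose by 0.41 (0.33 without replicate 1). PSMD4, a ubiquitin receptor, rose by 0.36 (0.18 without it). PSMD7, the partner of PSMD14, had the smallest change, 0.28 (edgeR adjusted p = 0.04996), and limma-voom called 10 of the 11. PSMD4 had expected counts that were not whole numbers in each library, as reads shared with other genes give.

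The 20S core rose less evenly. Of the 7 tested alpha ring genes 5 rose at 10 µM, and of the 7 constitutive beta ring genes 2 rose, beside 16.4% of all tested genes. The median log2 fold changes were 0.41 and 0.38. Without replicate 1, 6 and 5 rose, beside 23%, and the medians were 0.20 and 0.17. With the trend with length and GC removed and all 9 libraries kept, 3 and 2 rose, and the medians were 0.19 and 0.15. In that fit 3526 of all 15273 genes rose. At 5 µM the edgeR test called 0 of the 14 in either direction, 0 at an unadjusted p under 0.05 as well, and limma-voom and DESeq2 each called 0. The median at 5 µM was 0.12, and in 7 of the 14 all 3 libraries lay above the DMSO libraries, as in 23.7% of all tested genes.

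**Figure D3:**
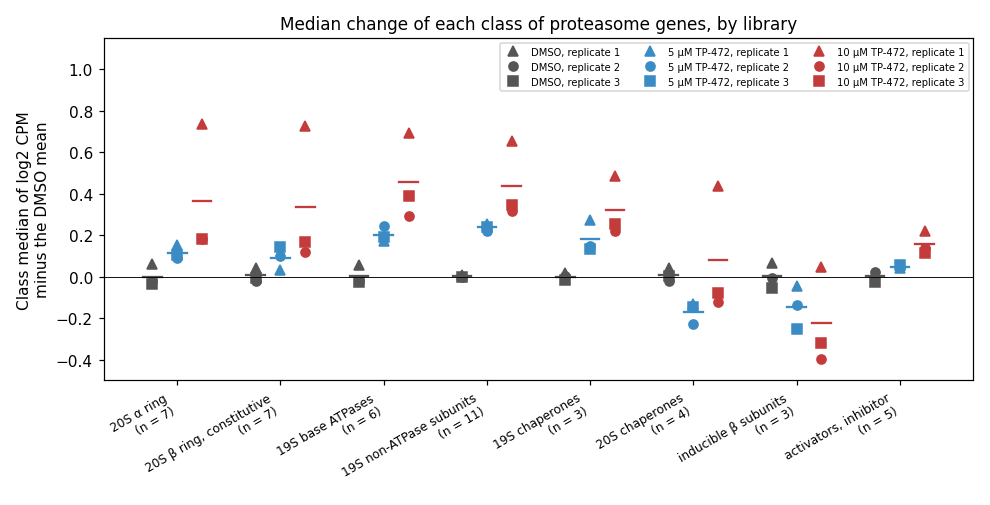
For each class of proteasome genes, the median over its tested members of log2 CPM minus the DMSO mean, with 1 point per library and a bar at the mean of the 3 libraries of a group. The ATPases and the other 19S subunits lie above DMSO in each treated library, the alpha and constitutive beta rings stand near 0.7 in replicate 1 at 10 µM and below 0.2 in replicates 2 and 3, and the inducible beta subunits lie below DMSO in replicates 2 and 3.

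PSMA7 and PSMA4 had the smallest p in the alpha ring. PSMA7 was at 295, 278 and 276 CPM in DMSO, 314, 324 and 304 CPM at 5 µM and 518, 329 and 357 CPM at 10 µM. All treated libraries lay above the DMSO libraries, and replicate 1 at 10 µM was far above the rest. Its log2 fold change at 10 µM was 0.51 ± 0.14 (SE, edgeR adjusted p = 0.0221), and 0.28 without replicate 1. PSMA4 was at 173, 164 and 161 CPM in DMSO, 188, 185 and 188 CPM at 5 µM and 249, 198 and 185 CPM at 10 µM. It changed by 0.34 ± 0.10 (SE, edgeR adjusted p = 0.0286) on the log2 scale, and 0.20 without replicate 1. PSMA1, PSMA5 and PSMA6 rose by 0.30, 0.43 and 0.41, and by 0.16, 0.22 and 0.21 without replicate 1. PSMA3, at 0.41, was not called (edgeR adjusted p = 0.0559), and was called at 0.18 without replicate 1 (edgeR adjusted p = 0.0145). PSMA2 was at 0.16 with all libraries and -0.04 without replicate 1, and was called in neither fit.

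In the constitutive beta ring PSMB3 and PSMB6 rose. PSMB3, a subunit without an active site, was at 106, 103 and 107 CPM in DMSO, 126, 123 and 123 CPM at 5 µM and 212, 135 and 123 CPM at 10 µM. Replicate 3 at 10 µM lay just under the 5 µM libraries, and all treated libraries lay above DMSO. The log2 fold change at 10 µM was 0.58 ± 0.17 (SE, edgeR adjusted p = 0.0246), and 0.29 without replicate 1. PSMB6, which carries the caspase-like site, was at 82.1, 75.6 and 78.7 CPM in DMSO, 80.6, 84.9 and 87.1 CPM at 5 µM and 151, 103 and 94.0 CPM at 10 µM. It rose by 0.56 ± 0.15 (SE, edgeR adjusted p = 0.0177), and by 0.32 without replicate 1.

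PSMB5, which carries the chymotrypsin-like site and is the main target of proteasome drugs, was at 109, 103 and 102 CPM in DMSO, 106, 119 and 113 CPM at 5 µM and 165, 114 and 117 CPM at 10 µM. PSMB7, which carries the trypsin-like site, was at 188, 171 and 178 CPM in DMSO, 199, 192 and 199.6 CPM at 5 µM and 347, 222 and 185 CPM at 10 µM. In PSMB5 replicate 2 at 10 µM lay between the libraries at 5 µM, and in PSMB7 replicate 3 lay below the DMSO replicate with the highest value. Neither was called at 10 µM, with log2 fold changes of 0.33 (edgeR adjusted p = 0.0755) and 0.49 (edgeR adjusted p = 0.0668). Without replicate 1 the changes were smaller, 0.14 and 0.18, and both were called (edgeR adjusted p = 0.0404 and 0.0222). PSMB7 had expected counts that were not whole numbers in each library. PSMB1, PSMB2 and PSMB4 had log2 fold changes of 0.38, 0.20 and 0.28, none of them called, and of 0.17, 0.02 and 0.08 without replicate 1, of which PSMB1 was called.

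**Figure D4:**
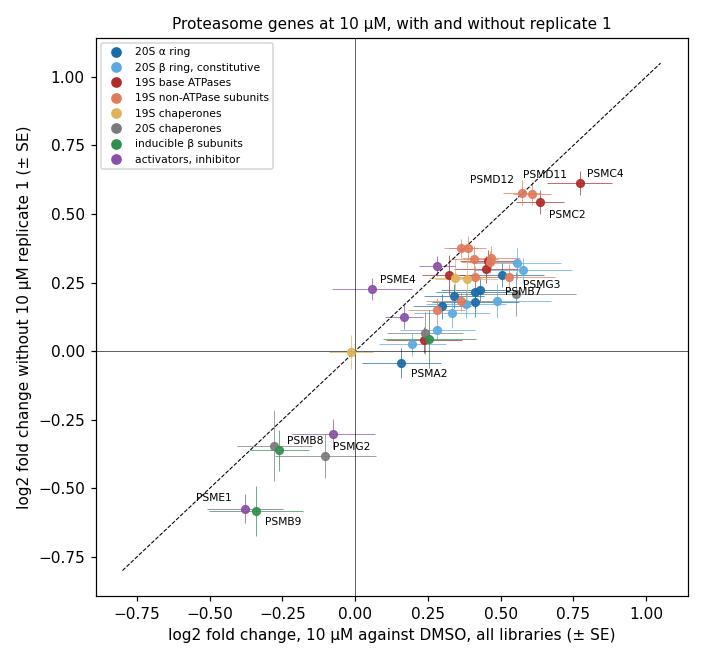
The log2 fold change of each tested proteasome gene at 10 µM against DMSO, with all 9 libraries on the horizontal axis and without replicate 1 at 10 µM on the vertical axis. Points are genes coloured by class, bars are standard errors and the dashed line marks equal values. PSMD12 lies on the line and PSMD11 near it, most core genes lie below it with PSMA2 falling from 0.16 to -0.04, and PSMB9, PSMB8 and PSME1 are below 0 on both axes.

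PSMB8 and PSMB9 were lower in replicates 2 and 3 at 10 µM than in DMSO while the subunits they replace were higher, and PSMB10 overlapped with DMSO. PSMB8 lies on chromosome 6 (32840717 to 32844703) next to PSMB9 (32844136 to 32859585), and PSMB10 on chromosome 16 (67934502 to 67937087). PSMB8, the counterpart of PSMB5, was at 41.9, 39.7 and 38.6 CPM in DMSO, 38.8, 36.4 and 33.1 CPM at 5 µM and 37.8, 30.4 and 32.1 CPM at 10 µM. PSMB9, the counterpart of PSMB6, was at 23.3, 21.3 and 19.8 CPM in DMSO, 18.8, 18.2 and 18.02 CPM at 5 µM and 22.2, 13.8 and 15.02 CPM at 10 µM. In both genes replicates 2 and 3 at 10 µM were the lowest of the 9 libraries, and replicate 1 lay within the DMSO range for PSMB9 and just under it for PSMB8. PSMB10, the counterpart of PSMB7, was at 19.6, 20.8 and 20.2 CPM in DMSO, 23.3, 19.3 and 23.7 CPM at 5 µM and 30.6, 18.8 and 22.9 CPM at 10 µM, and its groups overlapped.

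The edgeR test called 0 of these 3 genes at 10 µM in either direction, and 1, PSMB8, was lower at an unadjusted p under 0.05. limma-voom and DESeq2 also called 0. The log2 fold changes were -0.26 ± 0.10 (SE, edgeR adjusted p = 0.0717) for PSMB8, -0.34 ± 0.16 (SE, edgeR adjusted p = 0.132) for PSMB9 and 0.25 ± 0.16 (SE, edgeR adjusted p = 0.255) for PSMB10. Without replicate 1, PSMB8 was at -0.36 (edgeR adjusted p = 0.000883) and PSMB9 at -0.58 (edgeR adjusted p = 6.6e-05), both called, and PSMB10 at 0.04 (edgeR adjusted p = 0.76). With the trend with length and GC removed and all 9 libraries kept, the edgeR test also called PSMB8 and PSMB9 lower, at -0.45 (edgeR adjusted p = 0.000864) and -0.56 (edgeR adjusted p = 0.000641). In the GENCODE spans PSMB8 and PSMB9 overlap at their starts, on opposite strands. The RefSeq start of PSMB9 lies inside its GENCODE span and beyond that overlap. The antisense gene PSMB8-AS1 and PSMB9 cover 20.6% of the exons of PSMB8 on the opposite strand, and an unnamed gene model covers 34.8% of the exons of PSMB10 on the same strand.

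A ratio within a library does not depend on its scaling. The transcripts of PSMB8 and PSMB5 (1124 and 1294 nt) and of PSMB9 and PSMB6 (782 and 852 nt) are of similar length. Their GC contents are 54.9% and 51.9%, and 56.1% and 54.9%. PSMB10 and PSMB7 differ more, with 1218 and 980 nt and with 60.1% and 49.9% GC. The log2 ratio of PSMB8 to PSMB5 counts was -1.38 ± 0.01 (SD, n = 3) in DMSO, -1.64 ± 0.17 (SD, n = 3) at 5 µM and -1.96 ± 0.14 (SD, n = 3) at 10 µM. That of PSMB9 to PSMB6 was -1.88 ± 0.10 (SD, n = 3), -2.20 ± 0.09 (SD, n = 3) and -2.77 ± 0.13 (SD, n = 3). In both pairs the 3 groups did not overlap, replicate 1 at 10 µM included. Divided by transcript length, PSMB8 made up 30.4% to 30.7% of its pair in the DMSO libraries, 25.2% to 29.6% at 5 µM and 20.9% to 24.0% at 10 µM, and PSMB9 made up 21.5% to 23.6%, 18.4% to 20.3% and 12.7% to 14.8% of its pair. For PSMB10 and PSMB7 the ratios were -3.15 ± 0.11, -3.16 ± 0.13 and -3.36 ± 0.30 (SD, n = 3 each), and the groups overlapped. The ratios are a description and were not tested. They show unequal change of the partners and not which partner changed.

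**Figure D5:**
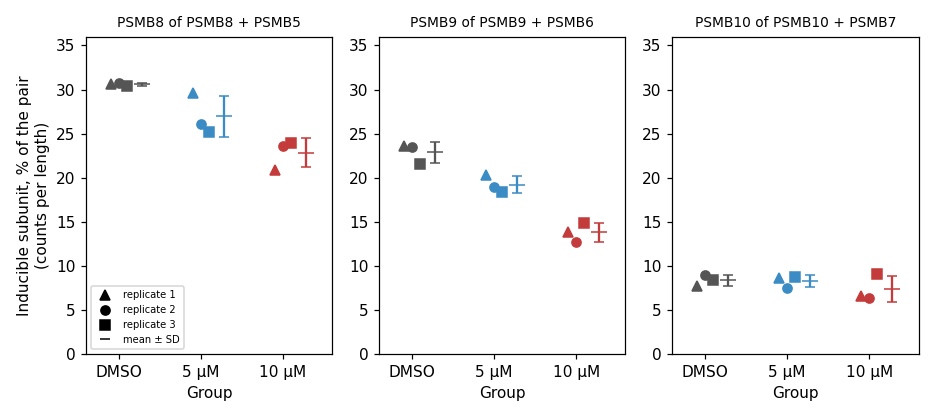
For each pair of an inducible and a constitutive catalytic subunit, the inducible subunit's percentage of the pair's counts per transcript length, by group, with 1 point per library and the mean ± SD of 3 libraries at the right of each group. PSMB8 goes from 30.6% to 22.8% and PSMB9 from 22.9% to 13.8% between DMSO and 10 µM with no overlap, while the PSMB10 groups overlap.

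The caps of the core other than the 19S regulator moved in both directions. PSME1 and PSME2 encode the subunits of the interferon-inducible 11S cap and lie 4395 bases apart, tail to tail, on chromosome 14. PSME1 was at 109.7, 112 and 104 CPM in DMSO, 94.9, 88.2 and 89.9 CPM at 5 µM and 105, 74.6 and 71.5 CPM at 10 µM. PSME2 was at 59.4, 58.7 and 55.3 CPM in DMSO, 55.1, 54.2 and 53.1 CPM at 5 µM and 70.5, 47.2 and 46.8 CPM at 10 µM. In PSME1 the libraries at 5 µM and replicates 2 and 3 at 10 µM lay below the DMSO libraries, with replicate 1 at 10 µM inside the DMSO range. In PSME2 replicate 1 at 10 µM was the highest of the 9 libraries and replicates 2 and 3 were the lowest.

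PSME1 fell by 0.38 on the log2 scale at 10 µM (SE 0.13, edgeR adjusted p = 0.0473), the single member called lower. Without replicate 1 its change was -0.57 (edgeR adjusted p = 2.15e-07). PSME2 was at -0.08 (edgeR adjusted p = 0.722), and at -0.30 without replicate 1 (edgeR adjusted p = 0.000301).

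PSME3, which encodes a nuclear cap, was at 184, 179 and 179 CPM in DMSO, 224, 224 and 219.5 CPM at 5 µM and 210.1, 229 and 219 CPM at 10 µM. Its libraries at both doses lay above DMSO and overlapped each other. It rose by 0.30 ± 0.06 (SE) at 5 µM (edgeR adjusted p = 0.0143) and by 0.28 ± 0.06 (SE) at 10 µM (edgeR adjusted p = 0.00666), or 0.31 without replicate 1. Between the doses it differed by -0.02 ± 0.06 (SE, edgeR adjusted p = 0.876). PSME4, another large nuclear cap, was at 131, 134 and 139 CPM in DMSO, 139, 139 and 140.2 CPM at 5 µM and 105, 156 and 159.8 CPM at 10 µM. Replicate 1 at 10 µM was the lowest of its 9 libraries and replicates 2 and 3 the highest. Its log2 fold change at 10 µM was 0.06 (edgeR adjusted p = 0.785), and 0.23 without replicate 1 (edgeR adjusted p = 0.000275). The inhibitor PSMF1 was at 92.9, 95.9 and 92.1 CPM in DMSO, 97.2, 96.8 and 97.5 CPM at 5 µM and 111, 103 and 101 CPM at 10 µM. Its change was 0.17 ± 0.07 (SE, edgeR adjusted p = 0.0777), and 0.12 without replicate 1 (edgeR adjusted p = 0.0279).

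Of the chaperones of the 19S base, PSMD9 and PSMD10 rose and PSMD5 was not called at 10 µM, at -0.01 with all libraries and -0.002 without replicate 1. PSMD9 was at 37.9, 37.5 and 37.0 CPM in DMSO, 47.8, 41.5 and 40.4 CPM at 5 µM and 56.4, 43.6 and 46.6 CPM at 10 µM. PSMD10, also known as the oncoprotein gankyrin, was at 52.7, 47.8 and 43.9 CPM in DMSO, 57.9, 55.1 and 56.0 CPM at 5 µM and 67.2, 59.1 and 57.2 CPM at 10 µM. All treated libraries lay above DMSO in both. The log2 fold changes at 10 µM were 0.38 ± 0.11 (SE, edgeR adjusted p = 0.0208) and 0.34 ± 0.09 (SE, edgeR adjusted p = 0.0165), and 0.26 and 0.27 without replicate 1.

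The edgeR test called 0 of the 4 PSMG chaperones of the 20S core at 10 µM in either direction, 1 was higher at an unadjusted p under 0.05, limma-voom called 0 and DESeq2 called 1 higher. PSMG3 was at 29.7, 29.3 and 30.4 CPM in DMSO, 27.6, 33.4 and 31.3 CPM at 5 µM and 62.2, 33.0 and 35.9 CPM at 10 µM. PSMG4 was at 11.2, 11.4 and 11.5 CPM in DMSO, 10.2, 8.23 and 8.85 CPM at 5 µM and 10.2, 7.98 and 9.98 CPM at 10 µM. In PSMG3 replicate 1 at 10 µM was far above the other 8 libraries, and in PSMG4 all 6 treated libraries lay below DMSO. The log2 fold change at 10 µM was 0.55 ± 0.21 (SE) for PSMG3 (edgeR adjusted p = 0.0621) and -0.28 ± 0.13 (SE) for PSMG4 (edgeR adjusted p = 0.127). Without replicate 1 they were 0.21 and -0.34, both called (edgeR adjusted p = 0.0423 and 0.0378). PSMG2 was at -0.10 with all libraries and at -0.38 without replicate 1 (edgeR adjusted p = 0.000888), and PSMG1 was called in neither fit.

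The sequences before the starts of the members were searched for 4 motifs on both strands, because many of these genes moved together. RefSeq promoters (GRCh38.p14), taken as the 250 bases before each annotated start, were at hand for 42 of the 48 members, as 51 promoters. TGACNNNGC, the core of the antioxidant response element that NFE2L1 and NFE2L2 bind with small MAF proteins, was in 25.5% of the 51, against 10.9% of all 35116 promoters. By class it was in 13.3% of 15 promoters of the 20S core and in 16.7% of 18 of the 19S regulator. The share was 20% of 5 for the inducible or thymic beta subunits and 50% of 6 for the activators and inhibitor. CCGGAAG, an ETS site, was in 21.6% of the 51 against 8.52% of all promoters, and CCAAT, the NF-Y site, in 37.3% against 32.0%. The core of the interferon-stimulated response element, written as GAAA and GAAA with any 2 bases between, was in 9.80% against 3.02%. The matches did not overlap matches of another of these motifs. Of the 13 members with TGACNNNGC, 6 rose and 1 fell at 10 µM, and of the 27 tested members with a promoter and no match 17 rose. A match is a description of letters and does not show binding.

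The stretches shown are from 3 members that rose at 10 µM (PSMB3 of the beta ring, PSMD3 and PSMD12 of the 19S regulator), and from PSME1, which fell, and PSMB9, which was lower without replicate 1. Each holds TGACNNNGC. Each runs 5′ to 3′ along the gene's strand, leaves out bases that GENCODE 29 places in an exon, and has motif matches on either strand in capitals. PSMB3 lies on the plus strand at chr17:38752491-38752735, PSMD3 on the plus strand at chr17:39980557-39980796, PSMD12 on the minus strand at chr17:67366628-67366827, PSME1 on the plus strand at chr14:24135944-24136157 and PSMB9 on the plus strand at chr6:32853979-32854147. The stretch of PSMB9 precedes its RefSeq start and lies inside the GENCODE span given above.
PSMB3: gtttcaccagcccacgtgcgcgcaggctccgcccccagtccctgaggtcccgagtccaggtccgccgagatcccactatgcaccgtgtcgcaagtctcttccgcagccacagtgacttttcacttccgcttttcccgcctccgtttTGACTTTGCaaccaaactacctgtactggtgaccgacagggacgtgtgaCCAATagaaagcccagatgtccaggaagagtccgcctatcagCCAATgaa
PSMD3: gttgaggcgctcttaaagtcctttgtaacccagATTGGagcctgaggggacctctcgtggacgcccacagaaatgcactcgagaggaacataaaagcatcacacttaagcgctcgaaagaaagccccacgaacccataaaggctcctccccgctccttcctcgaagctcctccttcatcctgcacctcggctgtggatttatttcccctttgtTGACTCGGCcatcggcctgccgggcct
PSMD12: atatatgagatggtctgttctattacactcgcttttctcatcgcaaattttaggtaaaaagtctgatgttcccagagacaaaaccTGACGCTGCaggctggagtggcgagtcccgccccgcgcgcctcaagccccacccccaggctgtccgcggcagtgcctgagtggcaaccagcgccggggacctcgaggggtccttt
PSME1: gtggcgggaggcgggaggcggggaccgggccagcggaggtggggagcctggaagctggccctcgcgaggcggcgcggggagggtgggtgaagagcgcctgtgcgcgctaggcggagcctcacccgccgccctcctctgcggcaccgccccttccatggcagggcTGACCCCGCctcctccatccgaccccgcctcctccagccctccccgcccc
PSMB9: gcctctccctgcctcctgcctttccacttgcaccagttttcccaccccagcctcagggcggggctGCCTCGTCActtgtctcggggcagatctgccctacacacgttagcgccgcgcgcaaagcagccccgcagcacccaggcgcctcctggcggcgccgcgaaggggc
The same short motif stands before genes that were higher and genes that were lower in treated cells. In PSMB9 it is on the opposite strand, and PSMB3 also holds CCAAT matches close to its start.

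Subunits and partners that the naming rule leaves out were followed as a list of 19 proteasome-associated genes. At 10 µM 5 rose and 4 fell, beside 16.4% and 18% of all tested genes, and the list's median log2 fold change was -0.06. The 3 with the smallest p were PITHD1, a proteasome-binding protein (0.67, edgeR adjusted p = 0.000999), UBQLN4, a shuttle for ubiquitinated proteins (-0.48, edgeR adjusted p = 0.00132), and ZFAND2A, a stress-induced 19S partner (0.75, edgeR adjusted p = 0.00135). Without replicate 1 they were at 0.54, -0.53 and 0.60. The other 3 that rose were ADRM1, a ubiquitin receptor of the 19S regulator (0.80), POMP, the maturation factor of the core (0.66), and SHFM1, the small lid subunit also called SEM1 (0.64). The other 3 that fell were KIAA0368 (-0.50), BAG6 (-0.21) and UCHL5 (-0.21). These 3 and ADRM1, POMP and SHFM1 were named after their values were seen. Without replicate 1 ADRM1, POMP and SHFM1 changed by 0.55, 0.47 and 0.41, and KIAA0368, BAG6 and UCHL5 by -0.36, -0.21 and -0.17. In that fit 6 of the list rose and 5 fell, beside 23% and 25.8%.

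Of 12 genes of the NFE2L1 pathway, 8 rose and 0 fell at 10 µM, beside the same 16.4% and 18%, with a median of 0.32. The edgeR test gave 0 lower at an unadjusted p under 0.05, limma-voom and DESeq2 each called 8 higher and 0 lower, and without replicate 1 edgeR called 10 higher. The smallest p values belonged to the small MAF partners. MAFK ranged from 54.2 to 58.7 CPM in DMSO, from 70.4 to 78.1 CPM at 5 µM and from 88.0 to 92.2 CPM at 10 µM, with no overlap between groups, and rose by 0.40 at 5 µM (edgeR adjusted p = 0.00736) and by 0.69 at 10 µM (edgeR adjusted p = 7.79e-05). MAFG rose by 0.45 (edgeR adjusted p = 0.000996) and MAFF by 0.56 (edgeR adjusted p = 0.00115) at 10 µM. Without replicate 1 the changes of MAFK, MAFG and MAFF were 0.68, 0.41 and 0.46. NFE2L1 itself was at -0.12 (edgeR adjusted p = 0.252). DDI2, the protease that activates NFE2L1, was at 9.36 to 10.2 CPM in DMSO and 11.6 to 12.5 CPM at 5 µM. At 10 µM it was at 1.30, 12.6 and 12.8 CPM, replicate 1 being the lowest of the 9 libraries. Its log2 fold change at 10 µM was -0.14 (edgeR adjusted p = 0.878), and 0.37 without replicate 1 (edgeR adjusted p = 0.0062).

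Of 12 genes of MHC class I antigen processing, which use the peptides of the proteasome, 1 rose and 2 fell at 10 µM, beside the 16.4% and 18% of all tested genes, and 1 rose and 6 fell without replicate 1, beside 23% and 25.8%. TAPBP, which bridges the peptide transporter and class I molecules, ranged from 73.6 to 79.9 CPM in DMSO, from 57.0 to 60.04 CPM at 5 µM and from 40.9 to 44.1 CPM at 10 µM. It fell by 0.85 at 10 µM (edgeR adjusted p = 1.86e-05). ERAP1, which trims peptides, fell by 0.94 (edgeR adjusted p = 0.00231). Without replicate 1 they were at -0.86 and -0.73. The transporter gene TAP1 rose by 0.35 ± 0.09 (SE, edgeR adjusted p = 0.011), and by 0.29 without replicate 1. By the RefSeq starts, TAP1 begins 488 bases from PSMB9 on the opposite strand, inside the longer span that GENCODE gives PSMB9, and PSMB9 was at -0.34 in the same comparison and at -0.58 without replicate 1.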

How the data were processed

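mRNA of A375 cells was sequenced in 9 libraries, 3 each for DMSO, 5 µM and 10 µM TP-472 at 24 h. The deposited values are RSEM expected counts for each gene symbol, and library size was not scaled out by the authors. The submitters' processing notes list Bowtie2 2.1.0, RSEM 1.2.15 and hg38 with no role or order, and the annotation and strand setting were not stated. Per the methods, the libraries were strand-specific and started from poly(A) RNA, while the design text names depletion of ribosomal RNA. Expected counts were rounded to whole numbers. Libraries held 42483091 to 51298130 counts, which leaves counting error small for the tested proteasome genes. It is larger for named genes with few counts, such as PSMB11, PTPRC and S100A1.

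The members and lists were chosen with earlier results of these data known. Counts were fitted with edgeR 4.0.16 in R 4.3.3 (TMM factors, filterByExpr, quasi-likelihood F test, 9 libraries in 1 fit, no block), and p-values were adjusted by Benjamini and Hochberg's method across 16417 genes. A call is an adjusted p under 0.05. The SE of a log2 fold change is its absolute value over the square root of F. The fit was tested on simulated counts, where it missed most small changes, so a gene not called may still have changed. The rule for naming took the 6 catalytic subunits, the 5 activators and inhibitors, the 2 tested members of each other class with the smallest p at 10 µM and the 3 such genes of each context list, and other members are given by value or range. Some genes of these lists, and the result of 1 list, are not reported here. Ratios, shares and class medians are descriptions. CPM uses TMM-scaled library sizes. Lengths, coordinates and overlaps are from GENCODE 29 on GRCh38, and promoters from RefSeq (GRCh38.p14), which lacked 6 members here. Python 3.11.15, pandas 2.3.3 and matplotlib 3.10.9 made the tables and figures.

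Alternatives were 2 other scaling factors, 2 other filters, limma-voom 3.58.1, DESeq2 1.42.0, a replicate block, fits of the 2 groups compared, removal of a trend with length and GC content (splines with 4 degrees of freedom, 15273 genes), a fold change of at least 1.5, leaving out genes of ribosomal RNA from the totals, and each library left out in turn.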

Additional observations from a re-analysis of the deposited data

How the results depend on the processing

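The counts of calls changed with the samples and settings of the fit. Testing 2 groups alone gave 24 rises and 4 falls at 5 µM, 15 rises and 0 falls at 10 µM and 0 rises from 5 µM to 10 µM. Removing the trend with length and GC content gave 8 rises and 2 falls at 5 µM, and 26 rises and 5 falls at 10 µM. It gave 7 rises and 1 fall from 5 µM to 10 µM. In that fit 1446 of all 15273 genes rose and 1597 fell at 5 µM, and 3526 rose and 2982 fell at 10 µM. Between the doses 1054 of them rose and 1203 fell. A fold change of at least 1.5 left 0 rises at 5 µM, 3 rises and 0 falls at 10 µM and 0 rises between the doses. Upper-quartile factors and a filter of 1 CPM in 3 libraries each gave 0 falls at 10 µM and 5 rises between the doses, and DESeq2 gave 7 rises between the doses. Leaving out 1 library gave 0 to 22 rises and 0 to 4 falls at 5 µM, 12 to 33 rises and 0 to 6 falls at 10 µM, and 0 to 11 rises and 0 to 3 falls between the doses, each highest without replicate 1 at 10 µM. Replicate numbers did not pair the libraries (correlations of same-numbered deviations -0.05 to 0.03), and a replicate block gave 4 rises at 5 µM, 24 rises and 2 falls at 10 µM and 3 rises between the doses. Shares over all tested genes are given for the fit with the trend removed, the fit without replicate 1 at 10 µM and the fold threshold. For the other alternatives they are not given, so those counts are no result about the members in particular. The causes were not tested.

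With the trend removed, class medians at 5 µM were 0.076 for the alpha ring, 0.031 for the constitutive beta ring and 0.22 for the 19S non-ATPase subunits, and at 10 µM 0.20 for the 19S chaperones and 0.26 for the activators and inhibitor, which stood at 0.059 at 5 µM with upper-quartile factors. Leaving out 1 library gave class medians of 0.13 to 0.24 for the 19S chaperones and 0.22 to 0.25 for the 19S non-ATPase subunits at 5 µM, and for the activators and inhibitor 0.025 to 0.051 at 5 µM and 0.017 to 0.12 at 10 µM. Without ribosomal RNA genes the summed share was 0.602% in DMSO and 0.689% at 5 µM. Signs changed for PSMG3 at 5 µM without replicate 2 at 5 µM (-0.017, range to 0.12), for PSME2 at 10 µM without replicate 2 or 3 (0.017 and 0.025, range from -0.30) and for PSME4 at 10 µM without replicate 2 or 3 (-0.031 and -0.047, range to 0.23), none of them called with all libraries. The number of libraries per group, 3, limits the precision of each value.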
